A study of Mus musculus with 6 samples.

Results

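Genes of inhibitory transmission by GABA and glycine were measured by RNA sequencing in hypothalamus of aged mice (22 months, 3 libraries) and young mice (12 weeks, 3 libraries). The set was named gene by gene and holds 25 of the 18228 genes in the count table. It comprises 11 subunits of the GABA-A receptor, 2 of the GABA-B receptor, 4 of the glycine receptor, 5 genes for making, loading, taking up and breaking down GABA, the scaffold gene Gphn and 2 chloride cotransporters. All 25 passed the low-count filter. The study sought hypothalamic predictors of failing cognition in old age. Per the design text, behaviour was tested in 5 mice of each age, of which a random 3 per age were sequenced. The groups are named by age alone, and strain, sex, litter and batch were not given in the sources used here. Mice of both ages were anaesthetised with pentobarbital, which itself acts on GABA-A receptors, before the tissue was taken.

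GABA is the main inhibitory transmitter of the brain, and most hypothalamic neurons receive it. GABA-A receptors and glycine receptors are chloride channels built from several subunits around a pore, so that the mix of subunits sets how the channel responds. GABA-B receptors are slower, act through G proteins and work only as a pair of different subunits. How strongly a chloride channel inhibits depends on the cotransporters that load chloride into the neuron or pump it out.

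Each library held 17208291 to 18884403 counted reads. Reads of the Y-linked genes Eif2s3y, Uty, Kdm5d and Ddx3y summed to 3394 to 3617 per aged library, against 24 to 32 reads per young library, so age and Y-linked expression divide the libraries in the same way and their effects cannot be told apart. The 22 hypothalamic markers all passed the low-count filter. They summed to 1504 to 1622 CPM in aged mice and 1490 to 1691 CPM in young mice. CPM is a gene's reads relative to the library total after TMM scaling. Of the 22, 3 were called as higher and 1 as lower by edgeR at an adjusted p under 0.05, and 18 were not called. Over all tested genes, 3.22% were called as higher and 3.64% as lower. Avp rose, at 357 to 373 CPM in aged and 220 to 253 CPM in young mice. Hcrt fell, at 103 to 114 CPM in aged and 162 to 247 CPM in young mice. Agrp was low, at 0.352 CPM in young replicate 1. The 4 measured markers of brainstem and spinal cord summed to 0.519 to 0.785 CPM in aged mice and 0.172 to 0.612 CPM in young mice. Young replicate 2 stood apart in markers of glutamatergic neurons and of thalamus and habenula. Its thalamus and habenula markers summed to 862 CPM, against 665 and 572 CPM in the other young libraries and 509 to 547 CPM in the aged ones. Aged replicate 2 had the lowest sum of 12 astrocyte markers, 3812 CPM against 5039 and 5069 CPM in the other aged libraries.

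Of the 25 genes, 1 was higher and 3 were lower in aged hypothalamus by edgeR's quasi-likelihood test at an adjusted p under 0.05, and 21 were not called. The called genes were the GABA-A subunit gene Gabra5, which rose, and the GABA-A subunit gene Gabrb1, the GABA-B subunit gene Gabbr2 and the glycine receptor gene Glra1, which fell. Over all 14702 genes tested, 6.86% were called, 3.22% as higher and 3.64% as lower, against 16% of the 25 (4% higher, 12% lower). The set was chosen with earlier results of these data known, which limits this and the next comparisons. The median SE was 0.079 for the 25 and 0.094 for all tested genes. The aged and young libraries did not overlap in 14 of the 25, 56% of them, where 31.7% of all tested genes did not overlap. An unadjusted p under 0.05 was found for 13 of the 25, against 26.2% of all tested genes. The median log2 fold change, aged over young, was -0.16 for the 25 genes and -0.00 for all tested genes, and 18 of the 25 were negative. With library totals as the only scaling, Gad1 joined the higher genes (2 higher, 3 lower of the 25; 627 higher and 446 lower of all genes, against 474 and 535 with TMM scaling). In whole tissue, fewer cells of a type and less RNA per cell cannot be told apart.

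**Figure D1:**
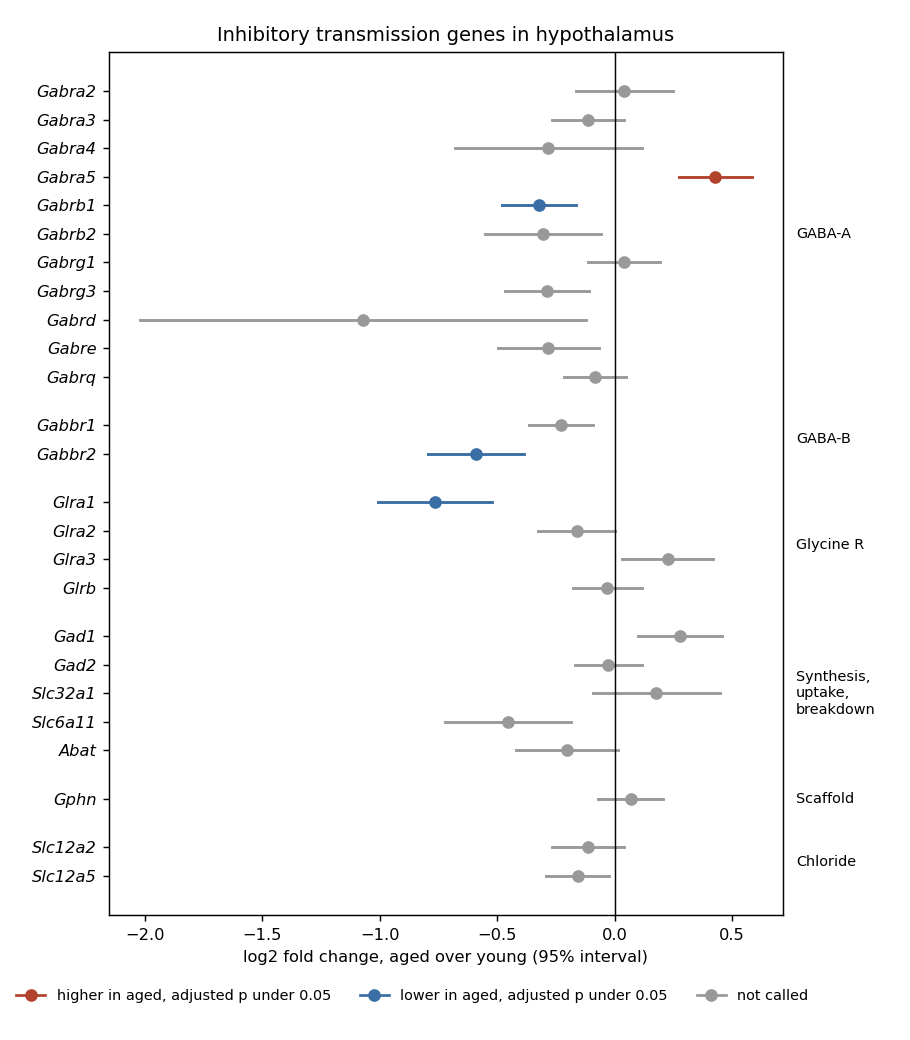
Log2 fold change of each gene, aged over young, on the horizontal axis with its 95% interval, for 25 inhibitory transmission genes grouped by class on the vertical axis. Gabra5 lies to the right of 0, and Gabrb1, Gabbr2 and Glra1 lie to the left; grey genes were not called, among them Gabrd with the widest interval.

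Among the alpha subunits of the GABA-A receptor, which with a beta subunit form the GABA binding site, Gabra5 was higher in aged hypothalamus. Gabra5 encodes the alpha subunit best known from receptors outside synapses in hippocampus. It had 82.7, 86.4 and 82.0 CPM in the aged libraries and 56.9, 65.4 and 64.2 CPM in the young ones. Each aged library stood above every young one. The means were 83.7 ± 2.35 CPM in aged mice and 62.2 ± 4.60 CPM in young mice (SD, n = 3 each), an increase of 34.6% (log2 fold change 0.43 ± 0.07 SE, edgeR adjusted p = 0.0115). The call held in each of 19 alternative analyses at the threshold of 0.05, with log2 fold changes from 0.38 to 0.47. It did not hold at an adjusted p under 0.01.

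The other alpha genes of the set were not called. Gabra3, which lies on the X chromosome, averaged 164 ± 10.4 CPM in aged mice and 177 ± 10.2 CPM in young mice (SD, n = 3 each), and Gabra2 averaged 59.6 ± 5.61 CPM in aged mice and 57.9 ± 5.56 CPM in young mice. For these genes the 95% intervals of the log2 fold change ran from -0.26 to 0.04 and from -0.17 to 0.25. Gabra4, a subunit of extrasynaptic receptors in thalamus and striatum, stood at 40.6, 34.7 and 36.1 CPM in the aged libraries and 38.3, 61.1 and 35.9 CPM in the young ones. Only young replicate 2 stood apart, the library with the highest thalamus and habenula marker sum. Without it the log2 fold change of Gabra4 was 0.01, against -0.28 with all libraries. The part of neighbouring tissue in the Gabra4 values was not tested.

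Levels of different genes can be compared once they are divided by gene length, as in FPKM (reads relative to gene length and library total). On that scale Gabra3 was the highest of these 4 alpha genes, at 40.3 ± 2.90 FPKM in aged and 42.7 ± 2.05 FPKM in young libraries (SD, n = 3 each). Gabra5 came next, at 20.2 ± 0.742 and 14.7 ± 1.15 FPKM in aged and young libraries. Gabra2 and Gabra4 followed and overlapped each other in both groups, at 10.7 ± 1.07 and 8.91 ± 0.671 FPKM in aged libraries and 10.2 ± 1.11 and 10.6 ± 3.17 FPKM in young ones. Of the summed FPKM of these 4 genes, Gabra5 made up 24.9%, 24.8% and 25.9% in the aged libraries and 18%, 18.2% and 20.1% in the young ones. The shares of Gabra3 were 49.3%, 51.4% and 50.2% in aged and 56.5%, 53.7% and 53.8% in young libraries. These shares are of the 4 genes only and were not tested.

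**Figure D2:**
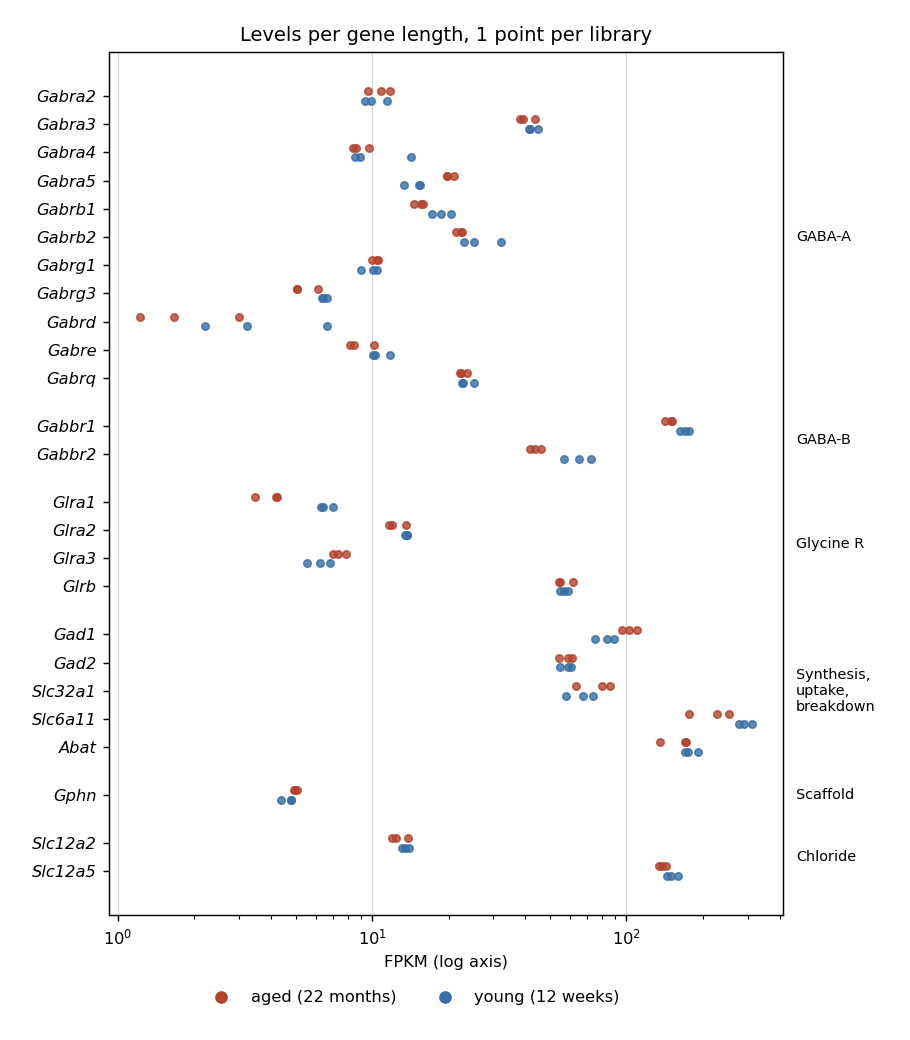
Level of each gene in FPKM on a log axis, 1 point per library, with aged libraries above young ones for each gene. Gabra3 is the highest of the 4 alpha genes shown, and Gabrd has the lowest aged mean of the 25 genes.

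Of the beta subunits, Gabrb1 was lower in aged hypothalamus. It stood at 213, 226 and 224 CPM in the aged libraries and 256, 303 and 270 CPM in the young ones. The groups did not overlap, and young replicate 2 was the highest library. Means were 221 ± 6.92 CPM in aged mice and 276 ± 24.6 CPM in young mice (SD, n = 3 each), a log2 fold change of -0.32 ± 0.07 SE (edgeR adjusted p = 0.0293). The call was lost in 7 of 19 alternatives. These were limma-trend on log2(FPKM + 1) and on log2(FPKM + 0.1) (limma adjusted p = 0.0583 and 0.0571) and the fits without single libraries, with edgeR adjusted p = 0.116 without aged replicate 1, 0.108 without aged replicate 3, 0.0598 without young replicate 2 and 0.0710 without young replicate 3. It was also lost when the trend of fold change with gene length was removed (log2 fold change -0.20, edgeR adjusted p = 0.0829). The length of this gene implied by its counts and FPKM is long, at 14565 bases. Gabrb2, a beta subunit of many synaptic receptors, stood at 188, 186 and 179 CPM in aged mice and 215, 275 and 193 CPM in young mice and was not called (log2 fold change -0.30 ± 0.11 SE, edgeR adjusted p = 0.120). Its log2 fold change was -0.14 without young replicate 2.

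The gamma, delta, epsilon and theta subunits fill the remaining places of the pentamer, and none of the 5 such genes in the set was called by edgeR. Of these 5, Gabrg3 was called by DESeq2, and Gabrg3 and Gabre both by limma-voom with sample weights and by edgeR without aged replicate 2. Gabrg3 had 50.8, 59.97 and 50.5 CPM in the aged libraries and 65.3, 68.0 and 63.5 CPM in the young ones. The groups did not overlap, and the log2 fold change was -0.29 ± 0.08 SE (edgeR adjusted p = 0.0610). Gabrg1, a gamma subunit found in glia as well as neurons, averaged 81.6 ± 3.02 CPM in aged mice and 79.3 ± 5.45 CPM in young mice (SD, n = 3 each). Epsilon and theta are subunits with a restricted distribution that includes hypothalamus, and both genes are X-linked. Gabre averaged 31.0 ± 3.44 CPM in aged mice and 37.8 ± 2.80 CPM in young mice (edgeR adjusted p = 0.101), without overlap, and Gabrq 120 ± 3.07 CPM in aged mice and 127 ± 5.74 CPM in young mice (edgeR adjusted p = 0.408), with overlap. Per length, Gabrq was the highest of the 5, with 45.9% of their summed FPKM in aged and 43.1% in young libraries.

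Gabrd, the delta subunit of extrasynaptic receptors, had the most negative log2 fold change of the 25 genes and was not called. It stood at 5.83, 2.34 and 3.23 CPM in the aged libraries and 6.39, 13.2 and 4.28 CPM in the young ones. The groups overlapped, since aged replicate 1 was above young replicate 3. The log2 fold change was -1.07 ± 0.42 SE (edgeR adjusted p = 0.147). Leaving out young replicate 2 gave -0.49 (edgeR adjusted p = 0.434). Gabrd is highly expressed in thalamus, cerebellum and dentate gyrus. Young replicate 2, its highest library, also had the highest level of Slc17a7, which loads glutamate into vesicles in cortex and thalamus, at 173 CPM, against 11.3 and 58.5 CPM in the other young libraries and 9.58 to 22.1 CPM in the aged ones. The part of neighbouring tissue in the Gabrd difference was not tested.

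**Figure D3:**
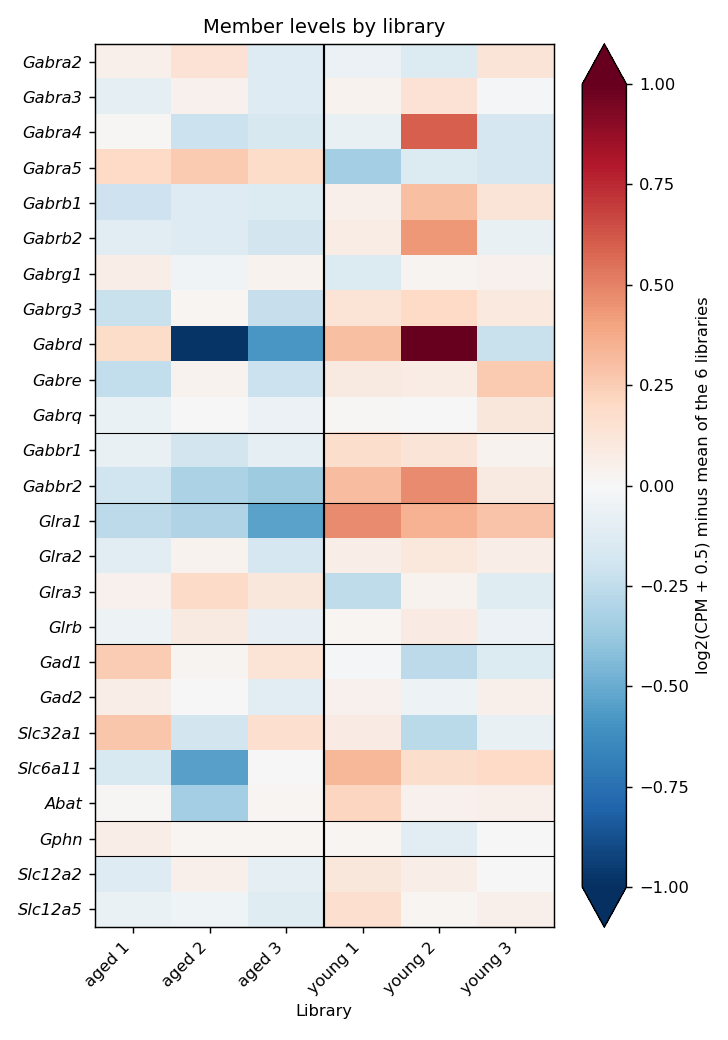
Deviation of log2(CPM + 0.5) from the mean of the 6 libraries, for each gene (rows, by class) and library (columns, aged left of young). Glra1 and Gabbr2 are below their mean in each aged library and above it in each young one, and Gabrd and Gabra4 are highest in young replicate 2.

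Several of the GABA-A genes lie beside each other in the genome, and their log2 fold changes follow in that order, with no test of a difference between neighbours. In the RefSeq annotation of GRCm38, used here for gene order only, Gabra5 and Gabrg3 are adjacent on chromosome 7, and their log2 fold changes were 0.43 and -0.29 (Gabrg3 not called). On chromosome 5, Gabrg1, Gabra2, Gabra4 and Gabrb1 follow each other with 1 other protein-coding gene between Gabra2 and Gabra4, at 0.04, 0.04, -0.28 and -0.32, and only Gabrb1 was called. Gabra4 and Gabrb1 lie on opposite strands, and exons of the pair share 28 bases in the GENCODE annotation of the same build. Exons of Slc32a1, Gabra5, Gphn and Glra1 likewise overlap antisense models there, by up to 697, 148, 147 and 141 bases, that the count table does not list. The strand setting of the counting was not given in the sources used here, so reads from these stretches cannot be assigned with certainty. On the X chromosome, Gabre, Gabra3 and Gabrq stand together, at -0.28, -0.11 and -0.08, and Glra2, a glycine receptor gene farther along, at -0.16. None of these 4 X-linked genes was called by edgeR; at an unadjusted p under 0.05, Gabre alone passed.

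Promoters are shown for the 3 called genes that have an entry in the RefSeq promoter table of GRCm38.p6, to let the start regions of genes that moved in different directions be compared. The table held 26 entries for 21 of the 25 genes. Each window runs from 250 bases before to 50 bases after the annotated start, read 5′ to 3′ on the strand of the gene. Capitals mark matches, on either strand, to any of 7 motifs: the GC box GGGCGG, the TATA motif TATAAA, the E-box CACGTG, the AP-1 motifs TGACTCA and TGAGTCA, the cyclic AMP response element TGACGTCA, the NR4A motif AAAGGTCA and the NRF1 core CGCATGCG.
Gabra5 (chr7:57510010-57510309, minus strand): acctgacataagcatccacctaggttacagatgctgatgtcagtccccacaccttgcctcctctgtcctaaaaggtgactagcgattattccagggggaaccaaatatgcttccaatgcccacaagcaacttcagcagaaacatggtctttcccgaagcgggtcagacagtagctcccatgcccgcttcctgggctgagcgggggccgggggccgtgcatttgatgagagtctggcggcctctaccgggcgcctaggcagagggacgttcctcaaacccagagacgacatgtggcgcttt
Gabbr2 (chr4:46991665-46991964, minus strand): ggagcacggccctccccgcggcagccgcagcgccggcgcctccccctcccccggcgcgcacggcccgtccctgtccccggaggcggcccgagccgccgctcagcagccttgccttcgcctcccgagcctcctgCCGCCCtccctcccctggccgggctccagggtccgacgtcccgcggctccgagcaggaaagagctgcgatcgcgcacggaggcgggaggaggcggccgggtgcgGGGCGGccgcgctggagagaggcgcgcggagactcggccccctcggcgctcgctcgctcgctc
Gabrb1, downstream start (chr5:71699682-71699981, plus strand): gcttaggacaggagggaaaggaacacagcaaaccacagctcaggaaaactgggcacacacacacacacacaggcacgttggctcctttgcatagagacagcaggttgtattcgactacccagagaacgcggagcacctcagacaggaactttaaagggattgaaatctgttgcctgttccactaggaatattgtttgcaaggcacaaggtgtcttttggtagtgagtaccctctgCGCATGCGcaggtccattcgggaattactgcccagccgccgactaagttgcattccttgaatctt

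The Gabra5 window held none of the 7 motifs. The Gabbr2 window was the richest in G and C of the 3, at 80.3% against 56.7% in Gabra5, and held 2 GC boxes. The downstream Gabrb1 window held an NRF1 core, the only one among the 26 windows of the set, while the upstream Gabrb1 window held none of the 7. Over all 32851 windows in the table, 35.7% held a GC box, 13.6% the TATA motif, 7.15% the E-box, 5.20% an AP-1 motif, 1.87% the NRF1 core, 1.79% the cyclic AMP response element and 1.51% the NR4A motif. Among the 26 windows of the set these were 16, 5, 1, 1, 1, 0 and 0. A match is a run of letters and was not tested as a binding site.

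Both subunits of the GABA-B receptor had negative log2 fold changes, and Gabbr2 was called. Gabbr1 encodes the subunit that binds GABA, and Gabbr2 the partner that carries it to the cell surface and couples to the G protein. Gabbr2 stood at 258, 238 and 232 CPM in the aged libraries and 368, 411 and 316 CPM in the young ones. The groups did not overlap, and young libraries spread more than aged ones. The highest was young replicate 2, the library with the highest thalamus and habenula marker sum. Gabbr2 averaged 242 ± 13.6 CPM in aged mice and 365 ± 47.7 CPM in young mice (SD, n = 3 each), a log2 fold change of -0.59 ± 0.09 SE and a change of -33.6% (edgeR adjusted p = 0.00947). The call was lost in 1 of 19 alternatives, without aged replicate 3 (log2 fold change -0.55, edgeR adjusted p = 0.0565). Without young replicate 2 the log2 fold change was -0.49, and the gene was still called (edgeR adjusted p = 0.0224). The part of neighbouring tissue in the Gabbr2 difference was not tested.

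Gabbr1 had 878, 814 and 870 CPM in the aged libraries and 1042, 1011 and 949 CPM in the young ones. The groups did not overlap, yet the gene missed the threshold (log2 fold change -0.23 ± 0.06 SE, edgeR adjusted p = 0.0512). It was called in 7 of 19 alternatives, among them DESeq2 and limma-voom, which called 8.91% and 6.35% of all genes. No fit that left out a library called it (edgeR adjusted p = 0.0736 to 0.165). Per length, Gabbr1 stood above Gabbr2 in every library. The ratio of their FPKM was 3.25, 3.26 and 3.58 in the aged libraries and 2.70, 2.35 and 2.87 in the young ones, so the groups did not overlap in this ratio, which was not tested.

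Of the glycine receptor genes, Glra1 was lower in aged hypothalamus and the others were not called. Glra1 encodes the alpha subunit of the adult receptor in brainstem and spinal cord, where it is best known. Of 9 listed brainstem and spinal cord markers, only 4 were in the count table, and their sum was near 0 in all libraries. The part of neighbouring tissue in the Glra1 difference was not tested. Glra1 had 10.1, 9.86 and 8.31 CPM in the aged libraries, from 144 to 190 reads each, and 17.2, 15.8 and 15.1 CPM in the young ones, from 272 to 294 reads each. Every aged library was below every young one. The means were 9.44 ± 0.99 CPM in aged mice and 16.1 ± 1.07 CPM in young mice (SD, n = 3 each), a log2 fold change of -0.76 ± 0.11 SE and a change of -41.1% (edgeR adjusted p = 0.00690). Glra1 had the smallest adjusted p of the 25 genes, and its call held in each of 19 alternatives, with log2 fold changes of -0.81 to -0.62.

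Glra2, the alpha subunit that prevails before birth in rodents, averaged 41.6 ± 3.13 CPM in aged mice and 46.5 ± 0.638 CPM in young mice (SD, n = 3 each; edgeR adjusted p = 0.200). Glra3, an alpha subunit known from dorsal spinal cord, had 46.1, 51.0 and 48.3 CPM in the aged libraries and 37.3, 45.8 and 41.2 CPM in the young ones. Its groups did not overlap, but only by a small margin, and the gene was not called (log2 fold change 0.23 ± 0.09 SE, edgeR adjusted p = 0.134). Glrb, the beta subunit that ties the receptor to gephyrin, was not called, at 191 ± 12.0 CPM in aged mice and 195 ± 9.40 CPM in young mice, with a 95% interval of the log2 fold change from -0.18 to 0.12. Of the summed FPKM of the 3 alpha genes, Glra1 made up 18.2%, 16.3% and 15.4% in the aged libraries and 27.0%, 23.9% and 24.0% in the young ones. Glra3 made up 30.1%, 30.8% and 32.8% in aged and 21.4%, 25.3% and 23.9% in young libraries, and Glra2 about the same share in each (50.9% to 53.0% over all 6 libraries). In young hypothalamus Glra1 and Glra3 were close per length, at 6.58 ± 0.391 and 6.21 ± 0.621 FPKM, while in aged hypothalamus Glra1 stood at 3.95 ± 0.418 and Glra3 at 7.42 ± 0.448 FPKM.

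**Figure D4:**
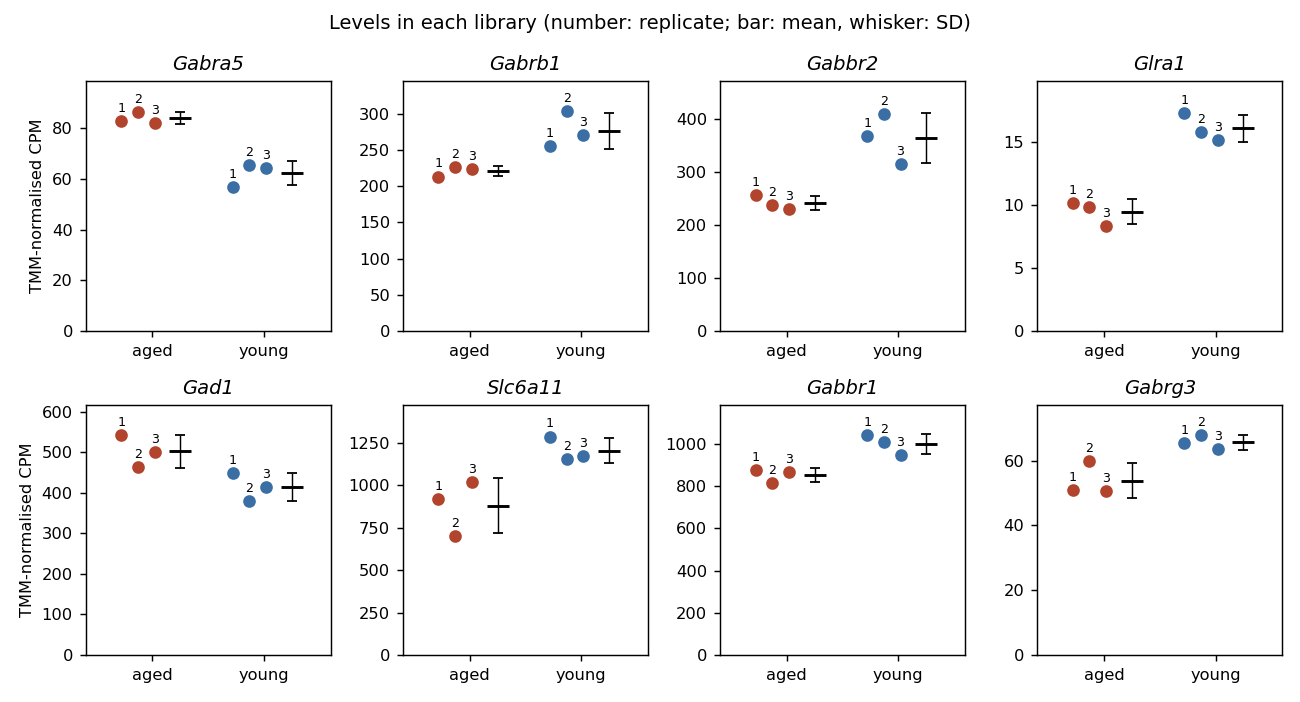
TMM-normalised CPM in each library for 8 genes, aged left of young; numbers give the replicate, and the bar and whisker beside the points are the mean and SD (n = 3). The 8 shown are the genes of the set with an edgeR adjusted p under 0.10, and in all 8 the aged and young points do not overlap. Over the whole set, 14 of 25 genes did not overlap, beside 31.7% of all tested genes. Gabra5, Gabrb1, Gabbr2 and Glra1 were called by edgeR at 0.05 and the lower row was not.

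None of the 5 genes for synthesis, loading, uptake and breakdown of GABA was called by edgeR. At an unadjusted p under 0.05, 2 of the 5 passed, Gad1 and Slc6a11, where 26.2% of all tested genes passed. DESeq2 called both, limma-voom called Slc6a11, limma-voom with sample weights, which called 17.5% of all genes, called both, and limma-trend on log2(FPKM + 1), which called 6.18% of all genes, called 0.

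Gad1 and Gad2 encode the enzymes that make GABA from glutamate, in the cell body and at nerve endings. Gad1 stood at 543, 463 and 501 CPM in the aged libraries and 448, 380 and 414 CPM in the young ones. Every aged library was above every young one. The log2 fold change was 0.28 ± 0.08 SE (edgeR adjusted p = 0.0638). Without aged replicate 2 the gene was called. Gad2 averaged 497 ± 29.7 CPM in aged mice and 507 ± 20.5 CPM in young mice (SD, n = 3 each), with a 95% interval of the log2 fold change from -0.17 to 0.12. The FPKM ratio of Gad1 to Gad2 was 1.80, 1.62 and 1.88 in aged and 1.52, 1.38 and 1.39 in young libraries, without overlap and not tested. Slc32a1, the transporter that loads both GABA and glycine into vesicles, had 349, 253 and 323 CPM in aged mice and 305, 239 and 274 CPM in young mice, which overlapped (log2 fold change 0.18 ± 0.12 SE, edgeR adjusted p = 0.387). Leaving out aged replicate 1 gave a log2 fold change of 0.09, and leaving out aged replicate 2 gave 0.31. With young replicate 1 or 2 left out it was 0.27 or 0.10, and the gene was called in none of these fits (lowest edgeR adjusted p = 0.0706). In both groups replicate 2 was the lowest library for Gad1 and Slc32a1.

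Slc6a11, a GABA transporter of astrocytes, had the highest FPKM of the 25 genes, at 218 ± 39.2 FPKM in aged and 293 ± 17.1 FPKM in young libraries (SD, n = 3 each). It had 919, 700 and 1020 CPM in the aged libraries and 1287, 1152 and 1172 CPM in the young ones. The groups did not overlap, and aged replicate 2 was far below the other aged libraries. The log2 fold change was -0.45 ± 0.12 SE (edgeR adjusted p = 0.0511). It was -0.30 without aged replicate 2, where it was called (edgeR adjusted p = 0.0351). Abat, the enzyme that breaks GABA down in neurons and astrocytes, had 783, 613 and 788 CPM in aged mice and 903, 802 and 808 CPM in young mice (log2 fold change -0.20 ± 0.10 SE, edgeR adjusted p = 0.221). Its lowest library was aged replicate 2 too, without which the log2 fold change was -0.08 (edgeR adjusted p = 0.448).

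Markers of astrocytes are given beside these values. Of 12 astrocyte markers tested, 5 fell and 7 were not called, where 3.64% of all tested genes were called as lower. Aqp4, a water channel, and Slc1a2, a glutamate transporter, were among those that fell (log2 fold changes -0.70 and -0.58). Among the 7, Gfap, a filament protein, and Gjb6, a gap junction protein, had positive log2 fold changes of 0.21 and 0.11. The summed level of the 12 was 3812 to 5069 CPM in aged mice and 5796 to 6095 CPM in young mice, without overlap, and the lowest aged value was that of replicate 2. The 16 general neuron markers summed to 8531 to 8912 CPM in aged mice and 8796 to 9891 CPM in young mice, which overlapped. The part of astrocyte RNA in the Slc6a11 and Abat values was not tested.

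**Figure D5:**
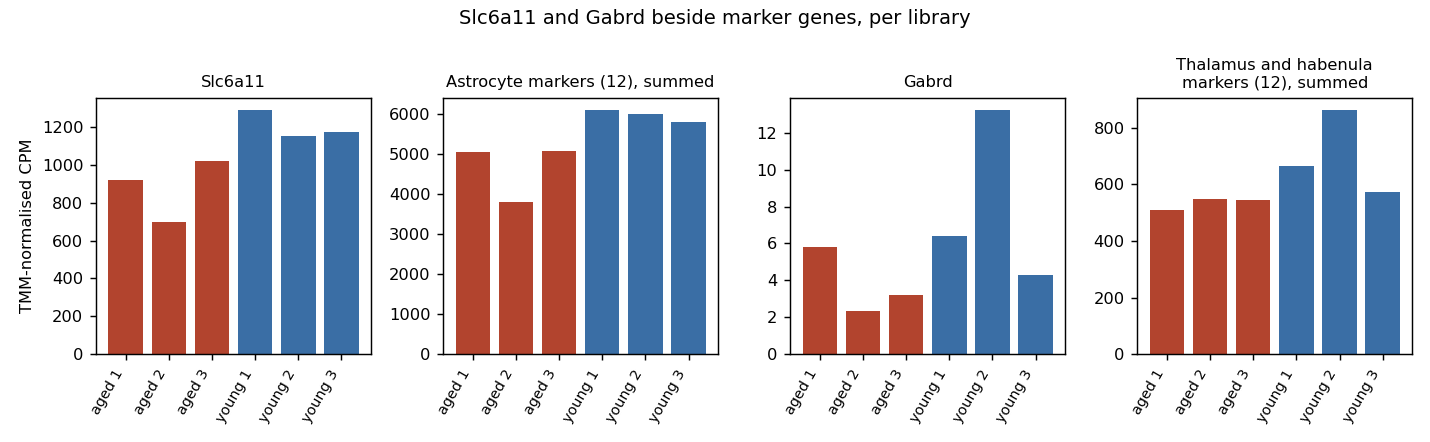
TMM-normalised CPM per library, aged left of young, for Slc6a11, the sum of 12 astrocyte markers, Gabrd, and the sum of 12 thalamus and habenula markers. Slc6a11 and the astrocyte sum are both lowest in aged replicate 2, and Gabrd and the thalamus and habenula sum are both highest in young replicate 2.

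Gphn encodes gephyrin, which holds glycine receptors and many GABA-A receptors at the synapse. It averaged 79.5 ± 1.57 CPM in aged mice and 75.8 ± 3.72 CPM in young mice (SD, n = 3 each), with a 95% interval of the log2 fold change from -0.07 to 0.21, and it was called by none of edgeR, DESeq2, limma-voom and limma-trend (unadjusted p = 0.290). Neither chloride cotransporter was called by edgeR, DESeq2 or limma-voom without weights. Slc12a5, which pumps chloride out of mature neurons, had 853, 866 and 821 CPM in aged mice and 1002, 907 and 924 CPM in young mice. These did not overlap, but the difference was small (log2 fold change -0.16 ± 0.06 SE, edgeR adjusted p = 0.131, unadjusted p = 0.0254; -0.10 without young replicate 1). Slc12a2, which brings chloride in and is also found in glia and vessels, averaged 85.4 ± 5.66 CPM in aged mice and 92.4 ± 3.65 CPM in young mice (edgeR adjusted p = 0.321). The FPKM ratio of Slc12a5 to Slc12a2 was 10.9 ± 0.595 in aged and 11.2 ± 0.421 in young libraries (SD, n = 3 each), and the libraries overlapped.

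Other genes of inhibitory neurons and synapses were taken from 6 lists holding 109 genes, of which 102 were tested. Of these 102, 8 rose, 4 fell and 90 were not called, 11.8% in all, beside the 6.86% of all tested genes, with a median log2 fold change of -0.07. Among 5 tested receptor subunits outside the set, Gabrr2, a rho subunit of GABA-A receptors, was at a low level and rose, with 2.67 ± 0.326 CPM in aged mice and 1.56 ± 0.0620 CPM in young mice (SD, n = 3 each; edgeR adjusted p = 0.0464; lost in 9 of 19 alternatives, among them the fits without aged replicate 1 or 3 or any 1 young library). Glra4, a glycine receptor gene, averaged 2.57 ± 0.139 CPM in aged mice and 1.74 ± 0.220 CPM in young mice and was not called (edgeR adjusted p = 0.101). Among 17 tested genes of transport, synthesis and breakdown, Slc38a2, a glutamine transporter, rose (log2 fold change 0.33 ± 0.07 SE, edgeR adjusted p = 0.0221), while Slc6a13, a GABA and taurine transporter of meninges and vessels, fell (-0.96 ± 0.19 SE, edgeR adjusted p = 0.0208). Both calls were lost in 4 of 19 alternatives, the fits without replicate 1 or 3 of either age. The 10 markers of endothelium and pericytes summed to 282 to 325 CPM in aged mice and 368 to 433 CPM in young mice. Of these 10, 5 fell, where 3.64% of all tested genes were called as lower. The part of these cells in the Slc6a13 value was not tested. Slc6a9, the glycine transporter of astrocytes, had 159, 129 and 157 CPM in aged mice and 221, 169 and 191 CPM in young mice and was not called by edgeR (adjusted p = 0.0622), while DESeq2, limma-voom with sample weights and the edgeR fit without young replicate 2 called it. Slc38a3, a glutamine transporter of astrocytes, was not called by edgeR either (adjusted p = 0.0701), while DESeq2 and limma-voom with sample weights called it.

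Of 28 genes for scaffolds and receptor auxiliary proteins, 2 fell and 26 were not called, a share called of 7.14%, near the 6.86% of all tested genes. Slitrk3, a postsynaptic adhesion protein of inhibitory synapses, had 48.4, 49.2 and 49.8 CPM in aged mice and 65.4, 68.5 and 59.9 CPM in young mice (log2 fold change -0.39 ± 0.07 SE, edgeR adjusted p = 0.0152). Its groups did not overlap, and its call was lost in 3 of 19 alternatives, the fits without aged replicate 1, aged replicate 3 and young replicate 1 (edgeR adjusted p = 0.0623, 0.0649 and 0.0548). Slitrk1, a related gene, fell by 0.25 on the log2 scale (edgeR adjusted p = 0.0498) and lost the call in 14 of 19, among them the fit without any 1 library. Plcl1 and Clptm1, which act in the trafficking of GABA-A receptors, had log2 fold changes of -0.20 and -0.16 and were not called. None of 13 other genes of chloride balance was called by edgeR, DESeq2, limma-voom or limma-trend, and limma-voom with sample weights called 1. An unadjusted p under 0.05 was found for 6, 46.2% of the 13, where 26.2% of all tested genes had one. Of the 13, 9 had a negative and 4 a positive log2 fold change, with a median of -0.14. Of the 6 with an unadjusted p under 0.05, not all of which are named, Wnk1, a kinase that acts on chloride cotransporters, had a log2 fold change of -0.16. It was 0.16 for Car2, a carbonic anhydrase, and 0.18 for Oxsr1, a kinase downstream of Wnk1.

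Of 22 tested identity factors of inhibitory neurons, 2 rose, 1 fell and 19 were not called, a share called of 13.6% beside 6.86% of all tested genes. Lhx6 and Lhx8, which specify GABA and cholinergic neurons of the ventral forebrain, rose. Lhx6 had 33.4, 22.7 and 34.2 CPM in aged mice and 13.1, 12.4 and 9.90 CPM in young mice (log2 fold change 1.35 ± 0.17 SE, edgeR adjusted p = 0.00434). Lhx8 had 13.4, 7.37 and 15.8 CPM in aged mice and 4.10, 2.47 and 2.45 CPM in young mice (2.01 ± 0.30 SE, edgeR adjusted p = 0.00835). The aged and young libraries did not overlap for either gene, both calls held in each of 19 alternatives, and aged replicate 2 was the lowest aged library for both. Satb1 was not called (edgeR adjusted p = 0.0587). Of 17 peptides and calcium binding proteins listed for inhibitory neurons, 4 rose and 13 were not called. The share called was 23.5%, beside 6.86% of all tested genes. These genes are not confined to inhibitory neurons, and Tac1 and Calb2 are also on the list of thalamus and habenula markers. Pdyn, Nts, Penk and Tac1 rose by log2 fold changes of 0.45, 0.66, 0.54 and 0.45, and lost the call in 3, 4, 5 and 6 of 19 alternatives. All 4 lost it without aged replicate 1 and without aged replicate 3; Tac1 also did without aged replicate 2, Penk, Tac1 and Nts without young replicates 1 and 2, and Pdyn without young replicate 3. Striatum markers, which include Penk, summed to 469 to 673 CPM in aged mice and 470 to 509 CPM in young mice; their part in these values was not tested.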

How the data were processed

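RNA of hypothalamus from 3 aged and 3 young mice was sequenced, per the labels' protocols with a mirVana extraction and stranded TruSeq libraries of mRNA. The authors deposited raw counts per gene and, for the same genes, FPKM. Gene length was not given and was taken as the median over libraries of the length implied by counts and FPKM. With it, counts divided by length and library total gave the deposited FPKM within a relative error of 2.4e-07 for all 18228 genes. Since the length came from the same values, this shows only that a single length per gene fits all libraries. The submitters' processing notes name GRCm39, HISAT2, HTSeq, Cufflinks, Trimmomatic and DESeq; versions, annotation and strand setting were not given in the sources used here.

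Counts were tested with edgeR 4.0.16 (R 4.3.3, quasi-likelihood, TMM scaling, filterByExpr with minimum count 10 and total 15, which left 14702 genes with 99.95% of reads), aged against young, with Benjamini-Hochberg adjustment over all of them and a threshold of 0.05. The SE is that implied by the test. Alternatives were DESeq2 1.42.0, limma 3.58.1, other scalings, filters and thresholds, log2(FPKM + 1) and log2(FPKM + 0.1), removal of the gene length trend, a replicate block and leaving out each library. The edgeR step was tested on simulated data. Replicates were separate mice, and none looked like a copy of another (chi-square per degree of freedom 4.00 to 12.1). The genes of the set and the lists were chosen with earlier results of these data known. Named were all 25 genes, the genes with the smallest p in each list (up to 4, not all described here) and markers. No score, share or ratio over the set was tested. A few genes of the lists are not reported here. Intervals cover the spread between these mice only.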

Additional observations from a re-analysis of the deposited data

How the results depend on the processing

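Of the 4 called genes, Gabra5 and Glra1 kept their call in each of 19 alternatives, Gabbr2 in 18 and Gabrb1 in 12. These 19 all used the threshold of 0.05. At an adjusted p under 0.01, Gabbr2 and Glra1 were called by edgeR, and Gabra5 and Gabrb1 were not. The number of set members called was 4, and 8 with DESeq2, 11 with limma-voom with sample weights, 2 at an adjusted p under 0.01 and 8 at an adjusted p under 0.10; leaving out single libraries gave 2 (without aged replicate 3) to 8 (without aged replicate 2). Of all genes, 1009 were called, 2568 with limma-voom with sample weights, 144 at 0.01, 2187 at 0.10, and 150 to 1633 without single libraries; with log2(FPKM + 1) 616 were higher and 293 lower, and with log2(FPKM + 0.1) 622 and 303. Of the other inhibitory genes, 12 were called, 26 with limma-voom with sample weights, 2 at 0.01, 24 at 0.10, and 2 to 14 without single libraries. The cause of these changes was not tested. The direction turned for 5 genes that were not called. Gad2 was at 0.00265 with library totals, 0.00221 with log2(FPKM + 1), 0.00224 with log2(FPKM + 0.1), 0.0548 with the gene length trend removed and -0.061 (without aged replicate 1) to 0.0257 (without aged replicate 3) without single libraries. Gabra2 was at -0.0492 with limma-voom with sample weights. Without single libraries, Gabra2 ranged from -0.0113 to 0.129, Gabra4 from -0.413 to 0.00633, Gabrg1 from -0.0068 to 0.082 and Glrb from -0.0729 to 0.0102.

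The replicate numbers do not mark a known pairing. Same-numbered libraries had correlated deviations of 0.0953, 0.0374 and -0.138, and aged replicate 2 correlated best with young replicate 3 (0.0894). A replicate block gave 8 called members (Gabbr1, Gabrg3, Gad1 and Slc6a11 beside the 4), 1190 called genes and 14 called other inhibitory genes. Depth is lowest behind Gabrd among the set, with 45 to 230 reads a library, and behind Gabrr2, with 26 to 54.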
